A study of Mus musculus with 4 samples.

Results

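The calpain family was followed in the small intestine of wild type (WT) and Cftr-null (CF) mice, through 9 genes that encode 8 catalytic subunits (Capn1, Capn2, Capn5, Capn7, Capn8, Capn9, Capn10 and Capn13) and the regulatory subunit Capns1. The members were chosen from earlier results of the same 4 arrays, in which Capn13 stood out in untreated CF mice, so its ratios are given as a description. They carry 15 probe sets (sets of short probes that together report 1 transcript) of 45101 on the array. Of these 15 probe sets, 14 reached the median signal of their array on at least 1 array, and all 9 genes kept at least 1 probe set, of 12259 genes in all.

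Each of the 4 arrays was hybridized with total RNA of the entire small intestine, pooled from all mice of a group, so that a group has 1 value per probe set. The WT control pool held 10 mice by the series description and 8 by the study's methods, the WT + lubiprostone pool 7, the CF control pool 10 and the CF + lubiprostone pool 8. The mice were C57BL/6, the CF mice carried the cftr-tm1Unc null allele in every cell, and all groups were fed the liquid diet Peptamen from weaning, which keeps CF mice from intestinal obstruction. Treated mice received lubiprostone, a chloride channel activator, by gavage at 10 µg/kg body weight a day for 2 weeks, the control groups received none, and ages are not given in the sources used here. With 1 array a group, no difference can be set against a spread between mice or pools, and no test was possible. Pooled tissue does not tell more cells of a type from more RNA per cell.

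Calpains are cysteine proteases of the cytosol that are activated by calcium and cut their substrates at a few positions, which alters a protein rather than degrading it. Capn1 and Capn2 each pair with the small subunit Capns1, and calpastatin, encoded by Cast, is their endogenous inhibitor. Capn8 and Capn9 are known from mucus cells of the gastrointestinal tract, where their products work as a complex. Capn5, Capn7 and Capn10 are atypical calpains that lack the calcium-binding penta-EF-hand domain of the classical members.

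The pools were compared for the targeted gene and for features of the tissue before the calpains. The brighter of the Cftr probe sets had signals, in arbitrary intensity units, of 2505 in the WT control pool, 2226 in WT mice given lubiprostone, 620.2 in the CF control pool and 715 in CF mice given lubiprostone. Markers of goblet and Paneth cells were bright in all 4 pools, with summed signals of 108490 or more and 75567 or more. Enterocyte markers were bright but lower in both CF pools, at summed signals of 120282, 127879, 77413.5 and 83090.4 in that order, with lactase (Lct) 7.50-fold lower in the CF control pool as compared to the WT one. T cell markers were also lower in both CF pools, at 6679.97, 6478, 4384 and 5722. The pools differed in exocrine pancreas markers (Cpa1, Ctrb1 and Cel), whose summed signals were 10479.7, 737, 12466 and 2807. They also differed in the X-inactivation transcript Xist, whose brightest probe set read 1036, 3683, 2509.9 and 4062. The brighter probe set of the Y-linked gene Eif2s3y read 1242, 829, 884 and 805. The mix of sexes in the pools was not tested. The part of these differences in any calpain value was not tested.

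Upstream sequence is shown for Capn13, Capn9 and Capn2, the 3 calpains with the highest ratios of CF control over WT control, up to the outermost annotated base of each gene. The sequences are from RefSeq (build GRCm38.p6) and are written 5′ to 3′ on the strand of the gene. Capn13 is shown at chr17:73399382-73399546 on the minus strand, Capn9 at chr8:124575861-124576061 on the plus strand and Capn2 at chr1:182517611-182517860 on the minus strand. Capitals mark matches to the motifs searched, each on both strands. The motif of TATA-binding protein was searched as TATAAA. The motif that nuclear factor Y is known to bind was searched as CCAAT. The motif of Sp family factors was spelled as GGGCGG. Sites of the zinc finger factors of the GATA family were searched under the spelling AGATAA. For STAT factors the usual spacing was written TTCNNNGAA, and the wider spacing that STAT6 prefers was written TTCNNNNGAA.
Capn13: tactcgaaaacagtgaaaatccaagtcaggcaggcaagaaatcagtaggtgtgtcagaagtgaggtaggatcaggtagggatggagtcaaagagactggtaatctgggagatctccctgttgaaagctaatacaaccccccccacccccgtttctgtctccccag
Capn9: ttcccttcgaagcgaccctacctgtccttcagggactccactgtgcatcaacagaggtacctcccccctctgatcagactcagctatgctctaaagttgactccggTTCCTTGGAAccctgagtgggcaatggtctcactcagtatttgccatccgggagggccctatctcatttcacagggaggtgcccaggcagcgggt
Capn2: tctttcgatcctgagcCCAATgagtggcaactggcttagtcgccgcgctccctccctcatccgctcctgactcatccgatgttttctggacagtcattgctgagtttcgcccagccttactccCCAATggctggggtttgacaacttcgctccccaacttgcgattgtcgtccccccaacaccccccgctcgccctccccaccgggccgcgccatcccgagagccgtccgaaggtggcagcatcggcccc

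The windows around the annotated starts of these 3 genes, which reach past the sequence shown into the gene, differed in composition and in motifs. In windows of 300 bases around the annotated start, Capn2 had 27 CpG dinucleotides and 64.3% G and C, Capn9 had 6 and 56.0%, and Capn13 had 2 and 49.0%. Over all 32817 such windows the medians were 7 CpG and 52.7%. Capn2 held CCAAT at 2 positions, a motif found in 37.4% of all windows, at positions -234 and -127 from the annotated start. Capn9 held TTCCTTGGAA, a match to TTCNNNNGAA, which is found in 6.94% of all windows. No motif of those searched was found in the Capn13 window. RefSeq windows were matched for 8 of the 9 genes, all but Capn5, and none of their 9 windows held TATAAA, which is found in 13.6% of all windows. The CCAAT motif was also found for Capn1, Capn7 and Capn10, GGGCGG (35.6% of all windows) was found for Capn1 and Capn7, and AGATAA (11.2%) for Capn1. No window of the family held TTCNNNGAA, found in 8.29% of all windows, and the match in Capn9 overlapped no other motif searched. A match describes the letters and is not a binding site.

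The question of each comparison was how the CF intestine differs from WT and how lubiprostone affects each genotype. A gene's log2 ratio is the mean over its kept probe sets, and the study's threshold of 3-fold served as the call. In CF control as compared to WT control, 1 of the 9 genes, Capn13, was at least 3-fold higher and 0 were at least 3-fold lower, where 1.16% and 1.82% of 11806 genes were. In CF + lubiprostone as compared to CF control, 0 genes were at least 3-fold higher and 1, again Capn13, was at least 3-fold lower, where 0.941% and 0.738% of all genes were. These comparisons share the CF control array. In WT + lubiprostone as compared to WT control no calpain was past 3-fold, with 0.488% of all genes higher and 0.573% lower. The same held between the treated pools, CF + lubiprostone over WT + lubiprostone, with 1.27% of all genes higher and 1.25% lower. The rule that picked the family knew these values, so nothing is read from the count of Capn13.

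At any size, 7 of the 9 genes were higher in the CF than in the WT control pool, with a median log2 ratio of 0.31 as compared to -0.02 over all genes, and 48.2% of all genes were higher. Setting all arrays to an equal median moved the median over all genes to 0.16 and that of the 9 calpains to 0.49, with 7 of 9 still higher. The 9 genes were chosen with earlier results of these arrays known, so this count and median only describe them. Capn12 and Capn15, calpain genes outside the 9, were lower in CF control, at log2 ratios of -0.19 and -0.33. In WT mice the log2 ratios with lubiprostone lay between -0.18 and 0.13, and 0 of the 9 genes differed by 1.5-fold, where 9.54% of all genes did. In CF mice 4 genes were higher with lubiprostone and 5 lower, and under scaling to the same median 1 was higher and 8 lower, so that the direction of the small ratios there depends on the scaling. Over all 5569 genes with several kept probe sets, the SD of a gene's log2 ratios had a median of 0.24 for CF over WT control pools. The median was 0.20 for lubiprostone in WT mice and 0.26 for lubiprostone in CF mice. Among the calpains, the SD for CF over WT control pools was 0.37 for Capn1, 0.66 for Capn5, 0.06 for Capn7 and 0.36 for Capn10. These SDs are spread within arrays.

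**Figure D1:**
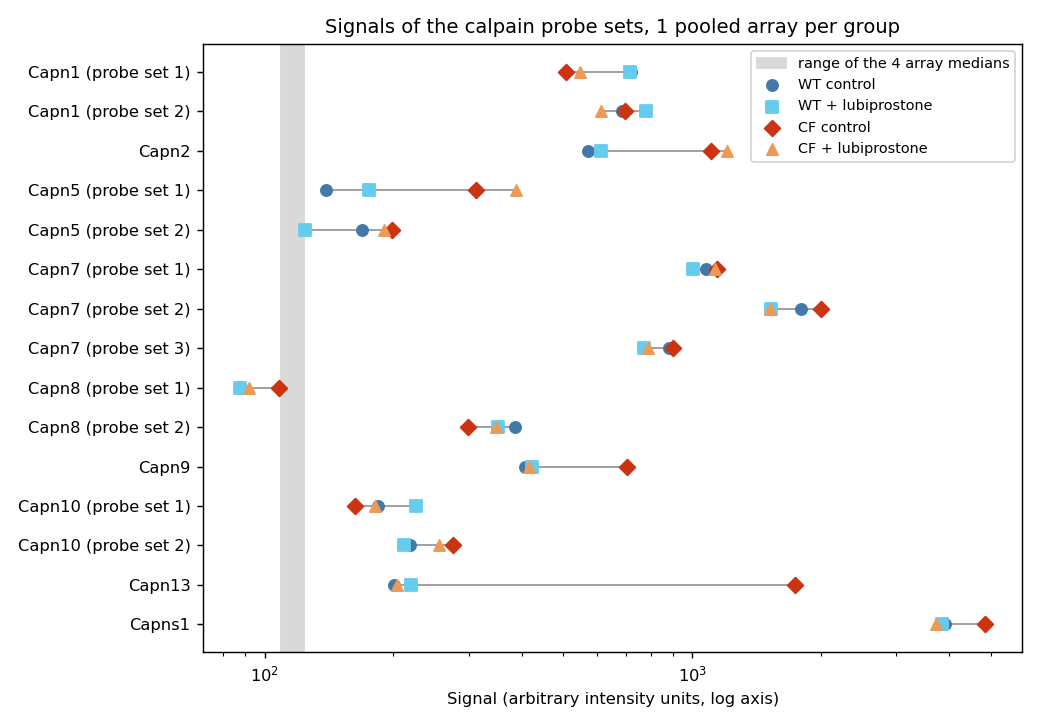
Signals of the 15 calpain probe sets in intensity units (log axis), where each point is the pool of 1 group and the shaded strip spans the medians of the 4 arrays. The CF control point of Capn13 lies at 1737 and its other points between 201 and 220.4, while Capn2 lies higher in both CF pools.

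The calpain with the widest range was Capn13, a classical calpain with a penta-EF-hand domain. It is measured by 1 probe set, so that no other probe set can be compared. Its signal was 201 in the WT control pool, 220.4 in WT mice given lubiprostone, 1737 in the CF control pool and 204 in CF mice given lubiprostone. The CF control pool was high and the remaining pools lay within 1.10-fold of each other. On its array, the probe set stood at percentile 90.6 of all probe sets in CF control and between percentiles 59.7 and 61.8 on the other arrays.

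Capn13 in the CF control pool was 8.65 times that in WT control, and 22 of 11806 genes had a higher ratio. It was 8.50-fold lower in treated than in untreated CF mice, and 12 of 11795 genes had a lower ratio. The ratio with lubiprostone in WT mice was 1.10, and between the treated pools CF over WT was 0.927. The 4 signals were all above the array medians, which lay between 109 and 124. The median is no detection limit, and the values carry no detection calls. Whether the lower signals stood above background, and so whether these folds are bounds, cannot be told.

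Capn9, which works with Capn8 in mucus cells, had the same order of pools at a smaller size. Its signal was 405 in the WT control pool, 423 in WT mice given lubiprostone, 706 in the CF control pool and 415 in CF mice given lubiprostone, from 1 probe set. CF control stood above pools that were within 1.04-fold of each other. The ratio of CF control over WT control was 1.74, with 531 of 11806 genes higher, and Capn9 was 1.70-fold lower in treated than in untreated CF mice, with 452 of 11795 genes lower. CF over WT between the treated pools was 0.983. Neither ratio reached 3-fold.

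Capn8, the partner of Capn9, did not have this order in its kept probe set. The kept probe set read 385 in the WT control pool, 351 in WT mice given lubiprostone, 299 in the CF control pool and 347 in CF mice given lubiprostone, so CF control was the lowest, 1.29-fold below WT control. Its other probe set read 87.9, 87.7, 107.8 and 92.0 in the same order, below the array median on all 4 arrays, with CF control the highest. The probe sets of Capn8 thus went in opposite directions, and with both counted the gene's log2 ratio of CF control over WT control was -0.03.

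**Figure D2:**
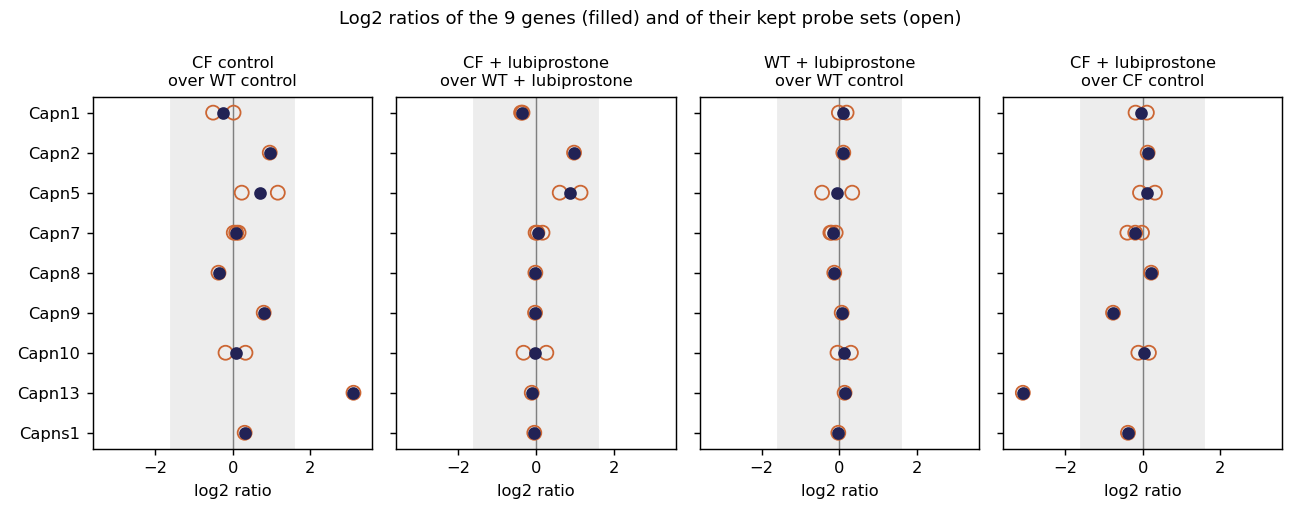
Log2 ratios of the 9 calpain genes (filled) and of their kept probe sets (open) in 4 comparisons, with the grey band marking less than 3-fold. Capn13 lies at 3.11 in CF control over WT control and at -3.09 in CF + lubiprostone over CF control, and Capn2 lies at 0.96 and 0.98 in the genotype comparisons of the untreated and treated pools.

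Capn2, the catalytic subunit of m-calpain, was higher in both CF pools, with or without lubiprostone. Its signal was 570.4 in the WT control pool, 612 in WT mice given lubiprostone, 1106 in the CF control pool and 1207 in CF mice given lubiprostone. Each pool is 1 value, and both CF pools lay above both WT pools. The share of all genes with this order was not counted. Summed enterocyte and T cell markers were lower in both CF pools. Most of the T cell sum was Gzma, at 5874 of 6680 in the WT control pool. The part of these cells in the Capn2 signal was not tested. CF over WT was 1.94 between the control pools and 1.97 between the treated pools, made from other arrays, at percentiles 96.9 and 96.6 of all genes. Lubiprostone over control was 1.07 in WT mice and 1.09 in CF mice, and the latter became a log2 ratio of -0.00 with arrays scaled to an equal median. Capn8 is the neighbour of Capn2 on the chromosome in RefSeq, with no protein-coding gene between them, and its CF over WT ratios were 0.777 and 0.988.

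Capn1, the catalytic subunit of µ-calpain, did not share the order of Capn2. Its probe sets read 719.8 and 684 in the WT control pool, 714 and 778 in WT mice given lubiprostone, 508 and 695 in the CF control pool and 547 and 612 in CF mice given lubiprostone. The first was lower in both CF pools, and the second lay close to WT control in CF control. The gene's CF over WT ratio was 0.847 between the control pools and 0.776 between the treated pools, and the former turned to a log2 ratio of 0.02 with the brightest probe set alone.

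Capns1, the small subunit that Capn1 and Capn2 share, had signals of 3916 in the WT control pool, 3844 in WT mice given lubiprostone, 4852 in the CF control pool and 3728 in CF mice given lubiprostone. CF control was the highest pool, as for Capn13 and Capn9, at 1.24-fold above WT control. CF + lubiprostone was 1.30-fold below CF control, and CF over WT between the treated pools was 0.970. For the ratio of CF control over WT control, 2375 of 11806 genes stood higher.

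Of the atypical calpains, Capn5 was higher in both CF pools in each of its probe sets, at unequal sizes. As for Capn2, the share of all genes with this order was not counted. The first read 139 in the WT control pool, 175 in WT mice given lubiprostone, 312 in the CF control pool and 388 in CF mice given lubiprostone. Its WT control signal was near the array median. The second read 169, 124, 199 and 189.6 in the same order, with WT + lubiprostone near the array median. CF over WT was 2.24 and 1.18 for these probe sets between the control pools, and 2.22 and 1.53 between the treated pools. The gene's log2 ratio was 0.70 with an SD between probe sets of 0.66, and 0.88 with an SD of 0.38. Both probe sets lay below the 75th percentile of every array.

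Capn7 and Capn10 differed little between the pools. Capn7, which acts in membrane traffic through its binding to ESCRT proteins, had 3 probe sets with signals between 769.8 and 1998, and each varied by 1.14-fold to 1.32-fold over the 4 pools. All 3 were highest in CF control, at 1.02-fold to 1.11-fold above WT control. Capn10, a gene studied for its link to diabetes, read 184, 226, 162 and 181 with one probe set and 219, 212, 276 and 255 with the other. Its probe sets went in opposite directions in CF control over WT control, at ratios of 0.881 and 1.26, and the gene's ratio was 1.05.

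The remaining genes of the calpain system were counted from a list of 7, which held calpastatin, the muscle calpain Capn3, Capn6, Capn11, Capn12, Capn15 and the second small subunit gene Capns2. Capn6, Capn11 and Capns2 were below the array median on all 4 arrays. Cast, Capn12 and Capn15, the 3 genes with kept probe sets above the median on every array, were lower in the CF than in the WT control pool. Their log2 ratios were -0.39, -0.19 and -0.33, and 0 were past 3-fold. The direction held under both other scalings, but not the sizes. With Capn3 included, the median log2 ratio of the 4 kept genes was -0.36, and -0.18 with arrays scaled to an equal median. Cast had 3 probe sets, each lower in CF control, at gene signals of 1755 in the WT control pool, 1626 in WT mice given lubiprostone, 1308 in the CF control pool and 1427 in CF mice given lubiprostone. Its ratio of CF control over WT control was 0.762, with an SD between probe sets of 0.20 on the log2 scale, and CF over WT between the treated pools was a log2 ratio of -0.14.

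Capn15, an atypical calpain, had a gene signal of 1174 in the WT control pool, 1253 in WT mice given lubiprostone, 897 in the CF control pool and 1301 in CF mice given lubiprostone. Its 3 kept probe sets were each lowest in CF control. CF control over WT control was 0.797 and CF + lubiprostone over CF control was 1.43. The CF control pool, highest for Capn13 and Capn9, was thus the lowest for Capn15. Capn3 was dim, and both of its probe sets, at 45.9 and 103 in the CF control pool, lay below that array's median, so no ratio is given for it.

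**Figure D3:**
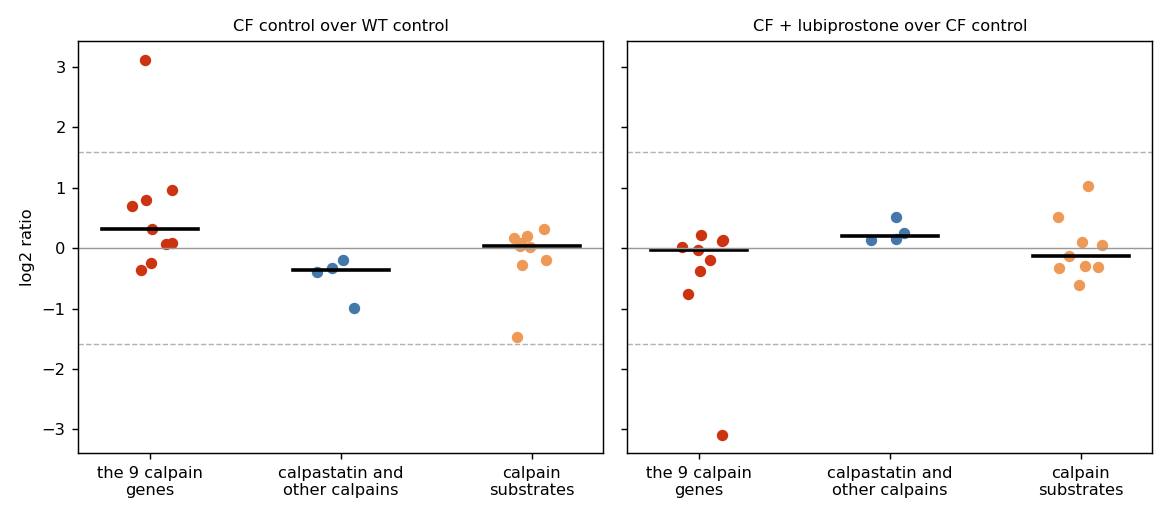
Log2 ratios of single genes in 3 lists, with a bar for the median of each list and dashed lines at 3-fold. In CF control over WT control Cast, Capn12 and Capn15 lie between -0.39 and -0.19, the lowest point beside them is Capn3, which was below the array median in CF control, and the 9 measured substrate genes between -1.47 and 0.32.

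Of 11 genes for known calpain substrates, 9 were measured, and 6 were higher and 3 lower in the CF than in the WT control pool, with a median log2 ratio of 0.03. In CF + lubiprostone over CF control 4 were higher and 5 lower, with a median of -0.12 (2 higher and 7 lower with arrays scaled to an equal median), and 0 were past 3-fold in either comparison. Sptan1, the spectrin chain that is a standard readout of calpain cleavage, had log2 ratios of -0.20 and 0.04. The largest difference was in Ezr, which links the brush border membrane to actin, at a log2 ratio of -1.47, but its probe sets had an SD of 1.29. Transcript signals say nothing of cleavage.

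Mast cell markers, like Capn13, had a summed signal that was highest in the CF control pool. Of the 4 mast cell markers (Mcpt1, Mcpt2, Cpa3 and Kit), 3 passed 3-fold upward in the CF control pool and 3-fold downward with lubiprostone in CF mice, while Kit had log2 ratios of -0.19 and -0.26. Their summed signal was 808 in the WT control pool, 565 in WT mice given lubiprostone, 9975 in the CF control pool and 1032 in CF mice given lubiprostone. No marker was at 0, and the lowest single signal was 53.1, of Cpa3 in WT + lubiprostone, below that array's median. The summed signal was 12.3 times WT control in CF control and 1.83 times WT + lubiprostone in CF + lubiprostone, where Capn13 was at 0.927 times. The part of mast cells in the Capn13 signal was not tested.

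CF control, the highest pool for Capn9 and Capns1, was also the highest in some marker lists of other cells. All 5 smooth muscle markers were above WT control in the CF control pool, and 4 of them were also above treated CF mice in mean signal. Myh11 was the exception in mean signal, at 1597 in CF control and 1638 in CF + lubiprostone. Its log2 ratio of CF + lubiprostone over CF control was -0.30, with an SD between probe sets of 0.52, so by that measure all 5 were lower. The summed signals of the list were 13793, 15596, 19107 and 13882, given here and below with the WT pools first and each control before its treated pool. Of the 4 gastric surface mucous cell markers, 3 were measured and Muc5ac was below the array median on all arrays. Their summed signals were 2487, 4049.6, 3747 and 2710.4, so that WT + lubiprostone was the highest, where Capn9 was not. Goblet cell markers had summed signals of 108490, 116213, 125401 and 115648, and 5 of 7 were higher in the CF than in the WT control pool, or 7 of 7 with arrays scaled to an equal median. Of the 4 tuft cell markers, 3 were measured, at summed signals of 686, 659, 899 and 607. Of these, 2 were higher in the CF than in the WT control pool, and Dclk1 was not, at a log2 ratio of -0.08. Paneth cell markers had summed signals of 75567, 83502, 90841 and 84074, and 2 of 4 were higher in the CF than in the WT control pool. The summed exocrine pancreas markers given above were also highest in CF control. The part of these cells in the signals of Capn9 and Capns1 was not tested.

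**Figure D4:**
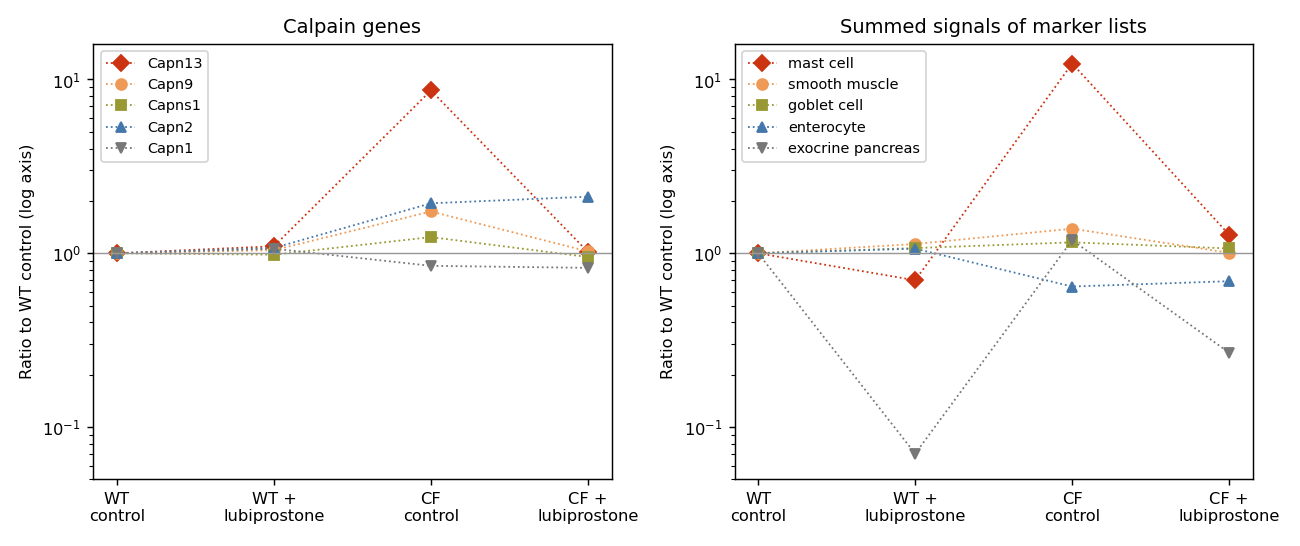
Ratio to WT control on a log axis for 5 calpain genes (left) and for the summed signals of 5 marker lists (right), with 1 point per pooled array and dotted lines only to guide the eye. Capn13 reaches 8.65 and the mast cell markers 12.3 in CF control, and Capn2 stays near 2.12 in CF + lubiprostone.

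The genes most like Capn13 were sought among 6630 brighter genes by the distance between their 3 log2 ratios to WT control and those of Capn13. Brighter meant a mean signal at or above the 75th percentile on at least 1 array, so a gene could enter through CF control alone. The nearest were the mast cell protease genes Cpa3, which was below the array median in both WT pools so that its distance is not exact, and Mcpt2, at a distance of 1.16 log2 units, then the trypsin gene Prss3 at 1.39, the complement regulator gene Cd55 at 1.57 and the prolyl hydroxylase gene Egln3 at 1.57. Cd55, by 3 probe sets, had mean signals of 724 in the WT control pool, 678 in WT mice given lubiprostone, 2426 in the CF control pool and 904 in CF mice given lubiprostone. Egln3, by 2, had 843, 892, 2753 and 1166. Prss3 had 43.7, 54.4, 702 and 91.7, with only CF control above its array's median, so that its distance is not exact either. Cpa3, Mcpt2 and Prss3, like Capn13 itself, reached the 75th percentile in CF control alone, so the filter let them in through the pool where they are high. These distances are over 4 arrays that all genes share and carry no test. All of these genes lay farther from Capn13 than the genes named below lay from Capn9 or Capn8. Between the treated pools the log2 ratio of CF over WT was 1.08 for Mcpt2, 0.27 for Cd55 and 0.28 for Egln3, and -0.11 for Capn13.

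For Capn9 the nearest genes were Kti12, Tcl1b3, Sema6d, Gnpnat1 and the smooth muscle gene Cnn1, at distances between 0.12 and 0.14. Cnn1 read 1013, 1055, 1870.3 and 1118 in the pool order used for the markers. For Capn8, they were C2cd2l, Mcmbp, Dab2ip, Dhx9 and Amotl2, at distances between 0.03 and 0.04.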

How the data were processed

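Small intestinal RNA was pooled within each of the 4 groups and run on 1 Affymetrix array per pool. The deposited values are intensities, signals on a linear scale that the authors extracted with GCOS and MAS5 (versions not given in the sources used here) and that carry no detection calls. Each array had a trimmed mean signal (2% off each end) of 500.0, so the arrays had been scaled. Probe sets with 1 gene symbol (34958) were named by gene identifier where RefSeq held it (34754), and 932 with several symbols and 9211 without a name were left out. Probe sets that reached the median signal of 1 or more arrays were kept (21756). A gene's log2 ratio was the mean over its kept probe sets, and a gene entered a comparison where such a probe set did so in an array compared. No test was possible with 1 array a group, and the number of arrays limits the precision. All 9 members, the genes of the lists and the 5 genes nearest to Capn13, Capn8 and Capn9 were to be named. The members and lists were chosen with earlier results of these data known. The ratios, the calls and the 2 scalings were tested on signals simulated from the WT control array with known changes. The simulated noise was a setting, so this checks the code and says nothing of the noise of these arrays. Alternatives were 2 scalings, 2 ways to sum up probe sets, dim signals set to the median and 2 filters. Python 3.11.15, numpy 2.4.6, pandas 2.3.3 and matplotlib 3.10.9 were used.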

Additional observations from a re-analysis of the deposited data

How the results depend on the processing

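Capn13 stayed past 3-fold in CF control over WT control (log2 ratios of 3.11 to 3.29) and in CF + lubiprostone over CF control (-3.22 to -3.08). No other member was past 3-fold in any of the 4 comparisons under the 7 alternatives. Capn13, Capn2 and Capn9 have 1 probe set each, above the median on all 4 arrays, so only the 2 scalings could move their ratios. The other alternatives are therefore no check of these genes, and Capn13 and Capn9 passed the filter at the 75th percentile through CF control alone. Capn2 kept log2 ratios of 0.96 to 1.13 and 0.97 to 1.02 in the genotype comparisons. Capn9 kept 0.80 to 0.98 and -0.89 to -0.76 in CF control over WT control and CF + lubiprostone over CF control. Small ratios of Capn1, Capn2, Capn5, Capn7, Capn8, Capn9 and Capn10 changed sign under at least 1 alternative in at least 1 comparison. Capn5, Capn8 and Capn10 gave no value with the filter at the 75th percentile.

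Counts over all genes moved more. For CF control over WT control, 137 higher and 215 lower genes became 174 and 165 with arrays scaled to the same median, 58 and 108 with dim signals raised to the median, 759 and 1213 with no filter, and 59 and 102 with the filter at the 75th percentile. In WT + lubiprostone over WT control, 57 and 67 became 4 and 18, 805 and 783, and 3 and 18 under the last 3 of these. In CF + lubiprostone over CF control, 111 and 87 became 85 and 108 with the same median, 89 and 105 with quantile normalization, then 24 and 25, 1092 and 731, and 25 and 26. Between the treated pools, 150 and 147 became 60 and 61, 873 and 950, and 63 and 61. No paired analysis was possible because each group is 1 array. Pools of 1 array a group limit every ratio here, and signals near the array median are the least sure.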
